A study of Mus musculus with 19 samples.

Results

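Fam163b, Mypop, Rnf208, Epn1, Unc5a, Trim32, Slc25a23, Apba1, Mapre3 and Apc2 are 10 of the 10454 genes measured here in mouse brain. They were chosen by a measured value, the rise of their readings under CCI-779 over placebo. CCI-779 (temsirolimus) is an ester of rapamycin that inhibits the kinase mTOR. All probe sets whose only gene symbol was one of these 10 names were taken, which gave 17 probe sets, and each gene was followed by its brightest one. The values under CCI-779 and placebo chose the genes, so those differences are descriptions and carry no test.

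The brains came from male mice in 4 groups, each array being 1 brain sample: 5 SCA3 transgenic samples given CCI-779, 5 SCA3 transgenic samples given placebo, 5 wild-type (wt) samples given CCI-779 and 4 wt samples given placebo. CCI-779 was given as intraperitoneal doses of 20 mg/kg, 3 per week. Treatment began at 5 weeks of age and lasted 6 weeks, and placebo was given as often. SCA3 is spinocerebellar ataxia type 3, which an expanded polyglutamine tract in ataxin-3 causes, and the construct and the promoter that drives it are not given in the sources used here. Nothing in the labels says that each array was a separate mouse, so the spread between arrays may be technical. The question these groups pose is what the drug changes in the brain of each genotype.

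The 10 proteins work at different places in a neuron. Unc5a is a surface receptor for the guidance cue netrin, Epn1 and Apba1 take part in endocytosis and vesicle traffic, and Mapre3 and Apc2 act at microtubules. Rnf208 and Trim32 are RING-finger ubiquitin ligases, Slc25a23 carries adenine nucleotides across the inner mitochondrial membrane, Mypop is a MYB-like transcription factor, and the role of the membrane protein Fam163b is little known.

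Fam163b, Mypop and Unc5a are shown with the bases just before their annotated start, because they lie at the ends of what was seen: Fam163b had the largest difference under the drug, Mypop varied most between the SCA3 arrays given the drug, and Unc5a had the smallest difference of the 10 in wt. Each run is 250 bases, read 5′ to 3′ on the strand of the gene, from RefSeq on build GRCm38.p6. Capitals mark a GC box (GGGCGG or its complement CCGCCC) or a part of the NRF1 motif (GCATGCGC or GCGCATGC). Fam163b lies at chr2:27142478-27142727 on the minus strand, Mypop at chr7:18990995-18991244 on the plus strand and Unc5a at chr13:54949161-54949410 on the plus strand.
Fam163b: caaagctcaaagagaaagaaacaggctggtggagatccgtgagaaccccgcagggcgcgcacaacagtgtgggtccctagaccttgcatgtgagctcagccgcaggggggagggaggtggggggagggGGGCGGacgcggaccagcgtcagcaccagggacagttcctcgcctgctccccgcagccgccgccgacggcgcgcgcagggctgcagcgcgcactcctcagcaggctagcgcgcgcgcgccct
Mypop: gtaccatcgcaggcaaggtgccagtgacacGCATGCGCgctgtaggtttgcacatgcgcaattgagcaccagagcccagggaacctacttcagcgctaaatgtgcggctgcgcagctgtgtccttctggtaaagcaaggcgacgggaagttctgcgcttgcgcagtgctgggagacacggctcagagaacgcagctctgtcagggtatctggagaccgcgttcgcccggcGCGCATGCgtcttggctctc
Unc5a: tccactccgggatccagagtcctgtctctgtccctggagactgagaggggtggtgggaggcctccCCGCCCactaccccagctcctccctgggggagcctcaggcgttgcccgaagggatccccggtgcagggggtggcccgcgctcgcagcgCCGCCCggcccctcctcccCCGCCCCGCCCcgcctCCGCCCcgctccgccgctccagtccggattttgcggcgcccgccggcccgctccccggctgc

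A GC box stood in 6 of 10 windows, against 61% of 8491 tested genes with a listed window. The Unc5a window held 5 GC boxes and that of Fam163b held 1. This part of the NRF1 motif (GCATGCGC or GCGCATGC) was in the Mypop window alone among the 10, at 2 places, against 4.69% of all windows. Shorter parts of that motif were not searched. The CCAAT box (CCAAT or ATTGG) was in 2 of 10 windows against 36.2%, and the E-box CACGTG was in 1 of 10, that of Epn1, against 8.77%. The TATA box (TATAAA or TTTATA) and the CRE (TGACGTCA) were in none of the 10 windows, against 5.96% and 2.9%. Both strands were searched, and the motifs were chosen after the windows had been seen. The share of G and C had a median of 63% over the 10 windows (52.4% to 81.6%) and 60.8% over all. These matches are letters in a window and show no bound factor.

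Values are log2 of the deposited intensity, so 1 unit is a doubling. A difference is the mean of the CCI-779 arrays minus that of the placebo arrays of the same genotype, with its standard error (SE) from 1 fit over the 19 arrays. Levels of different probe sets cannot be set against each other.

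Fam163b had the largest difference of all tested genes in both genotypes. In SCA3 it read 7.49, 9.32, 7.20, 7.82 and 8.79 on the CCI-779 arrays, against 4.99, 4.95, 5.53, 5.19 and 5.02 on the placebo arrays. In wt the CCI-779 arrays read 8.59, 6.61, 7.38, 7.12 and 6.07, against 4.46, 5.01, 4.98 and 3.73 on the wt placebo arrays. The lowest drug array stood above the highest placebo array in each genotype, and SCA3 CCI-779 arrays 2 and 5 and wt CCI-779 array 1 stood highest. The difference was 2.99 (SE 0.43) in SCA3, 7.94-fold, and 2.61 (SE 0.46) in wt, 6.11-fold. With a pseudocount of 16 added before the log, it was 2.54 in SCA3 and 2.01 in wt. The other Fam163b probe set lay between 2.20 and 2.25 on every array, at the floor of the scale.

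Mypop, a repressor of transcription known as a partner of profilin, was dim under placebo and spread widely under the drug. Its SCA3 CCI-779 arrays read 5.05, 7.30, 5.50, 6.41 and 7.94, against 4.59, 4.44, 4.52, 4.57 and 4.90 on SCA3 placebo arrays. Its wt CCI-779 arrays read 6.24, 4.96, 5.56, 5.44 and 4.89, against 4.74, 4.45, 4.42 and 4.61 on wt placebo arrays. The groups did not overlap, yet the gap between wt CCI-779 array 5 and wt placebo array 1 was narrow. The SD between arrays was 1.21 for SCA3 CCI-779, against 0.18 for SCA3 placebo. The difference was 1.84 (SE 0.41) in SCA3 and 0.86 (SE 0.43) in wt.

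Rnf208 and Trim32 attach ubiquitin to other proteins, and Trim32 is known for its part in muscle upkeep and neural progenitor fate. Rnf208 read 9.31, 10.74, 9.02, 9.37 and 10.58 on SCA3 CCI-779 arrays, against 8.16, 8.0, 8.22, 7.95 and 8.14 on SCA3 placebo arrays. It read 9.72, 8.89, 9.13, 8.98 and 8.60 on wt CCI-779 arrays, against 8.13, 7.88, 7.70 and 7.69 on wt placebo arrays. The Rnf208 groups were apart in both genotypes, with differences of 1.71 (SE 0.28) in SCA3 and 1.21 (SE 0.30) in wt. Trim32 read 11.25, 12.11, 10.84, 10.90 and 12.13 on SCA3 CCI-779 arrays, against 10.18, 9.60, 10.14, 9.91 and 10.16 on SCA3 placebo arrays. In wt, Trim32 read 11.03, 10.84, 10.80, 10.38 and 10.33 under CCI-779, against 10.02, 9.83, 9.78 and 9.82 under placebo. The Trim32 groups did not overlap either, and arrays 2 and 5 were again the highest of SCA3 CCI-779. Its difference was 1.45 (SE 0.23) in SCA3 and 0.81 (SE 0.24) in wt.

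Epn1, or epsin 1, is an endocytic adaptor that bends membrane and binds clathrin and ubiquitinated cargo. Its SCA3 CCI-779 arrays read 9.24, 10.66, 9.25, 9.30 and 10.89, against 8.35, 8.32, 8.47, 8.32 and 8.15 on SCA3 placebo arrays. In wt it read 9.52, 9.12, 8.97, 9.33 and 8.86 under CCI-779, against 8.42, 8.33, 8.48 and 8.30 under placebo. Arrays 1, 3 and 4 of SCA3 CCI-779 lay within 0.06 of each other, while arrays 2 and 5 stood over 1 unit higher. The difference was 1.55 (SE 0.27) in SCA3 and 0.78 (SE 0.29) in wt, with no overlap in either.

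Apba1, or Mint1, is a neuronal adaptor that binds Munc18 and the amyloid precursor protein. It read 9.72, 10.34, 9.41, 9.59 and 10.32 on SCA3 CCI-779 arrays, against 8.70, 8.04, 8.50, 8.36 and 8.67 on SCA3 placebo arrays. The wt CCI-779 arrays read 9.92, 9.44, 9.34, 9.35 and 9.17, against 8.68, 8.76, 8.73 and 8.29 on wt placebo arrays. Neither pair of groups overlapped, and the difference was 1.42 (SE 0.19) in SCA3 and 0.83 (SE 0.20) in wt. The other Apba1 probe sets, a pair, lay between 1.67 and 2.50 on every array.

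Unc5a, a repulsive netrin receptor with a death domain, read 7.07, 8.21, 7.03, 7.48 and 8.05 on SCA3 CCI-779 arrays, against 6.44, 5.73, 6.28, 5.70 and 6.39 on SCA3 placebo arrays. In wt it read 6.91, 6.82, 7.08, 7.29 and 6.71 under CCI-779, against 6.29, 6.19, 6.45 and 6.01 under placebo. The groups did not overlap, and wt CCI-779 array 4, not array 1, was the highest of its group. The difference was 1.46 (SE 0.22) in SCA3 and 0.73 (SE 0.23) in wt.

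Mapre3, or EB3, tracks the growing ends of microtubules and is rich in brain. On SCA3 CCI-779 arrays it read 9.47, 10.68, 9.46, 9.87 and 10.58, against 8.69, 8.48, 8.78, 8.70 and 8.33 on SCA3 placebo arrays. On wt CCI-779 arrays it read 10.02, 9.62, 9.76, 9.99 and 9.34, against 8.81, 8.44, 8.78 and 8.32 on wt placebo arrays. All drug arrays stood above all placebo arrays of their genotype. The difference was 1.42 (SE 0.22) in SCA3 and 1.16 (SE 0.23) in wt, the closest such pair of values among the 10 genes.

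Apc2, a brain relative of the tumour suppressor Apc that binds beta-catenin and microtubules, had 4 probe sets. The brightest read 7.41, 8.70, 7.31, 8.08 and 8.54 on SCA3 CCI-779 arrays, against 5.99, 6.50, 7.13, 7.32 and 7.33 on SCA3 placebo arrays. It read 8.03, 7.34, 7.57, 7.89 and 7.04 on wt CCI-779 arrays, against 6.69, 5.66, 5.68 and 5.84 on wt placebo arrays. The SCA3 groups overlapped by a hair, since CCI-779 array 3 at 7.31 lay under placebo arrays 4 and 5, while the wt groups were apart. The difference was 1.15 (SE 0.32) in SCA3 and 1.61 (SE 0.34) in wt, so that Apc2 was the only one of the 10 genes with the larger value in wt. The second tested Apc2 probe set had differences of 0.47 (SE 0.22) in SCA3 and 0.54 (SE 0.23) in wt, each under 0.6 where the brightest was over 1. Another, too dim to be tested, read up to 5.10 on SCA3 CCI-779 array 2, and the last stayed between 1.96 and 2.01.

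Slc25a23 is a calcium-regulated carrier that exchanges ATP-magnesium for phosphate in mitochondria. Its SCA3 CCI-779 arrays read 10.92, 11.24, 10.52, 10.66 and 11.48, against 9.77, 9.38, 9.53, 9.44 and 9.52 on SCA3 placebo arrays. In wt, CCI-779 arrays read 10.63, 10.54, 10.50, 10.38 and 10.01, against 9.51, 9.22, 9.84 and 9.19 on placebo arrays. The lowest wt drug value, from array 5, was above the highest wt placebo value. The difference was 1.43 (SE 0.17) in SCA3 and 0.97 (SE 0.18) in wt, with the smallest SE of the 10 genes in each.

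**Figure D1:**
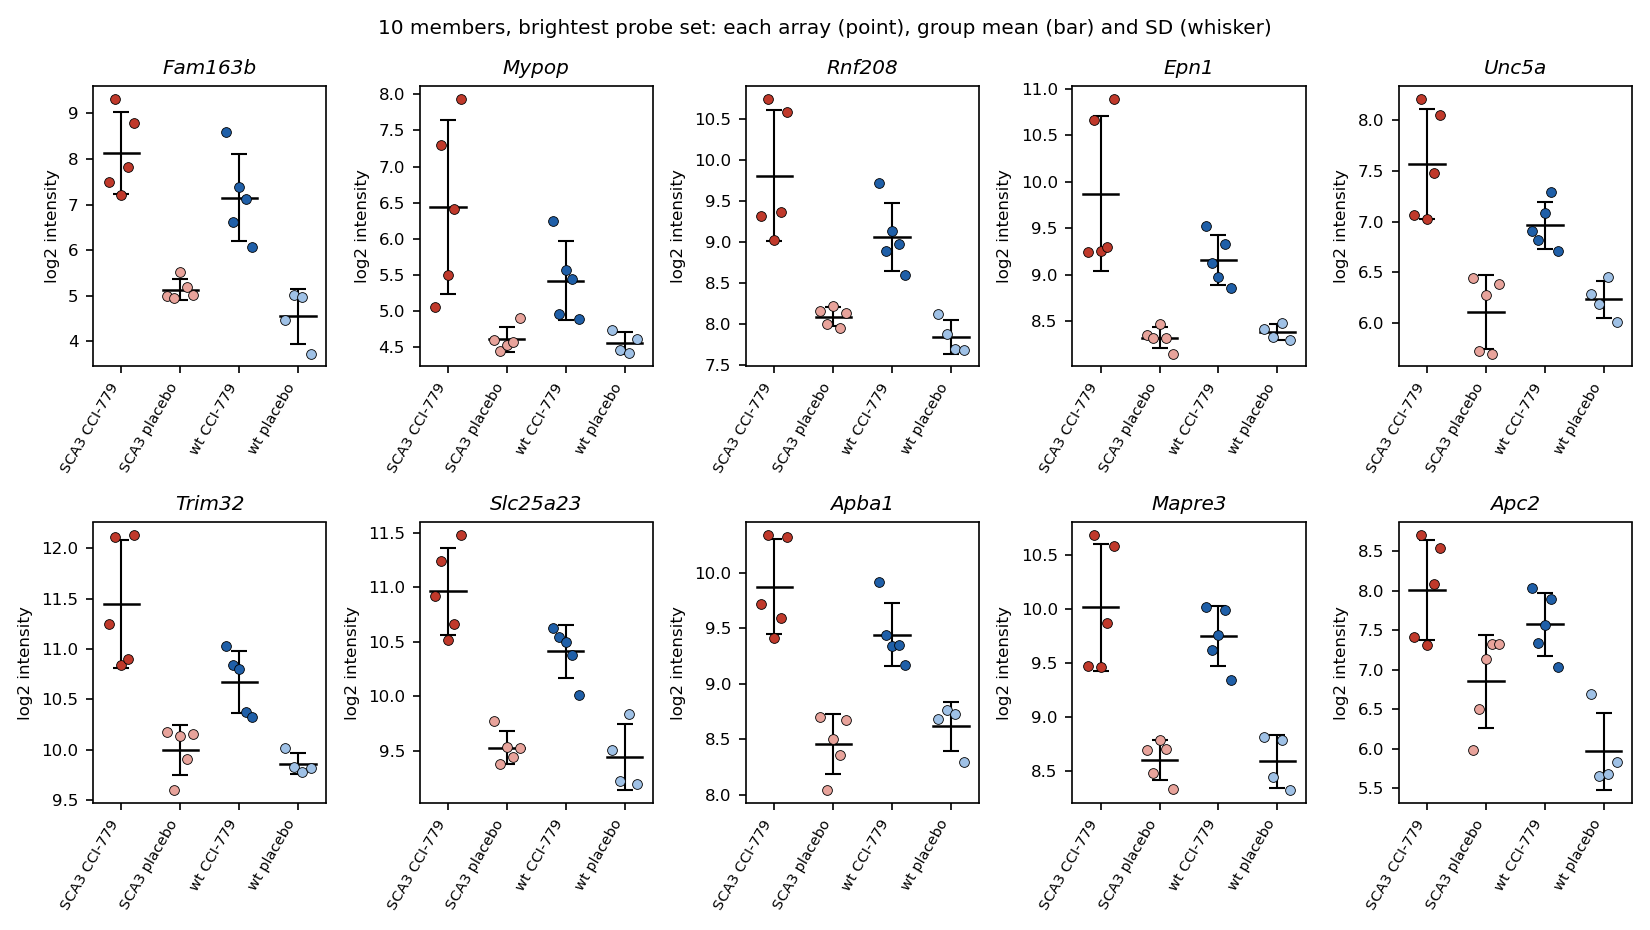
Log2 intensity of the brightest probe set of each of the 10 genes, 1 panel a gene, with every array as a point, the group mean as a bar and the SD as a whisker (5 arrays a group, 4 in wt placebo). The CCI-779 points stand above the placebo points of their genotype in every panel except Apc2 in SCA3, and SCA3 CCI-779 is the most spread group for 9 genes.

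Over the 10 genes the median difference was 1.45 in SCA3 (1.15 to 2.99), against 0.00 over all 10454 genes. In wt it was 0.92 (0.73 to 2.61), against 0.08 over all genes. The CCI-779 and placebo arrays of SCA3 did not overlap for 9 of the 10 genes, and those of wt for all 10. Among all tested genes, 8.82% had every CCI-779 array above every placebo array in SCA3 and 14.1% in wt. These shares are given beside counts that the choice of the genes fixed. By size of difference in SCA3, the 10 genes ranked 1, 3, 4, 6, 9, 10, 11, 12, 13 and, for Apc2, 43. In wt, Fam163b ranked 1, Apc2 3, Rnf208 14, Mapre3 20 and Slc25a23 49, while Mypop ranked 84, Apba1 107, Trim32 114, Epn1 144 and Unc5a 177. Genes that were not chosen held the ranks between.

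**Figure D2:**
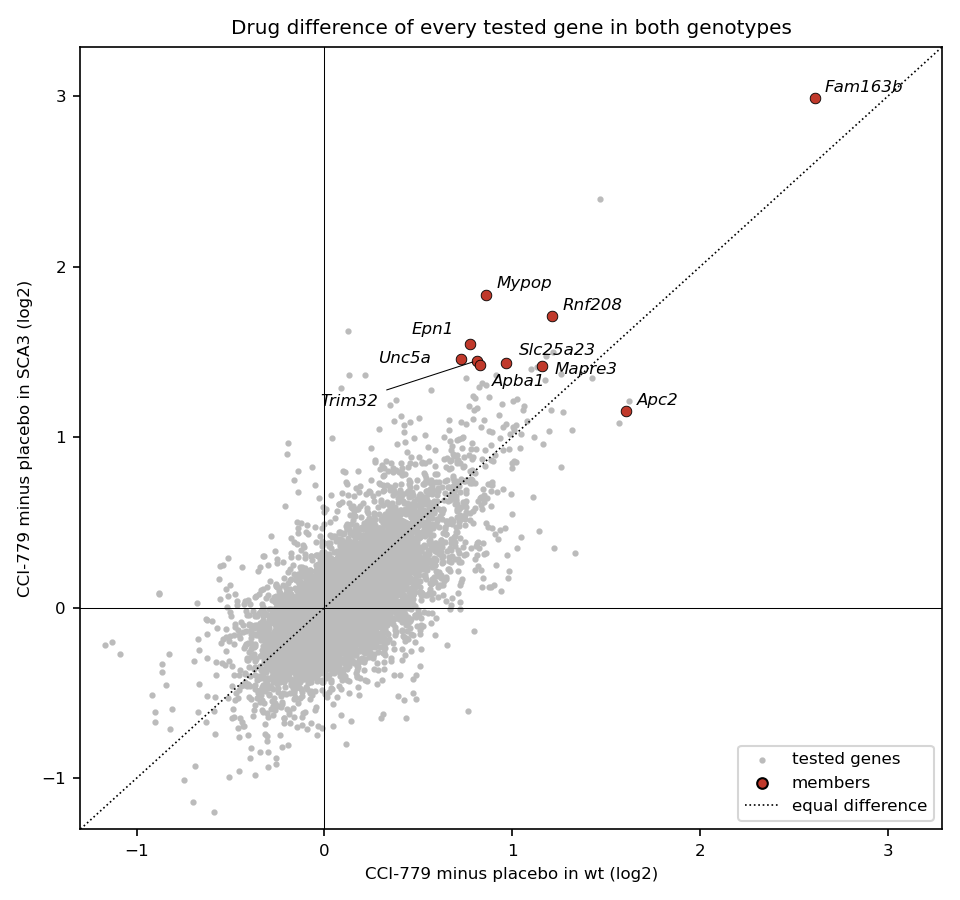
Difference CCI-779 minus placebo of all 10454 tested genes (log2), in wt on the horizontal and in SCA3 on the vertical axis; red points are the 10 genes and the dotted line marks equal differences. Fam163b lies alone at 2.61 and 2.99, 9 genes lie above the line and Apc2 lies below it.

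The size of the differences moved with a few arrays. Of the 19 arrays, 3 stood apart from their groups on the principal components of all tested probe sets. SCA3 CCI-779 arrays 2 and 5 had scores of -42.37 and -39.19 on the second component, where the other arrays of that group lay between -2.47 and 1.96. The array of wt CCI-779 1 had a score of -66.34 on the first, where the rest of its group lay between -12.11 and 2.61. The mean deviation of the 10 genes from their group means was 0.72 on SCA3 CCI-779 array 2, 0.72 on array 5 and 0.50 on wt CCI-779 array 1. It was lowest on SCA3 CCI-779 array 3, at -0.66, on array 1 at -0.52, and on wt CCI-779 array 5, at -0.46. On the 9 placebo arrays it stayed between -0.23 and 0.17.

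Without SCA3 CCI-779 arrays 2 and 5, the median difference of the 10 genes in SCA3 was 1.07 (0.75 to 2.37), against 1.45 with them, and that of Fam163b was 5.17-fold. Mypop and Epn1 moved most for their size, to 1.05 and 0.94 without these arrays, against 1.84 and 1.55 with them. Leaving out wt CCI-779 array 1 too gave a median of 0.83 in wt (0.66 to 2.25), with Fam163b at 4.76-fold. All 10 differences stayed above 0 in both genotypes in both cases.

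**Figure D3:**
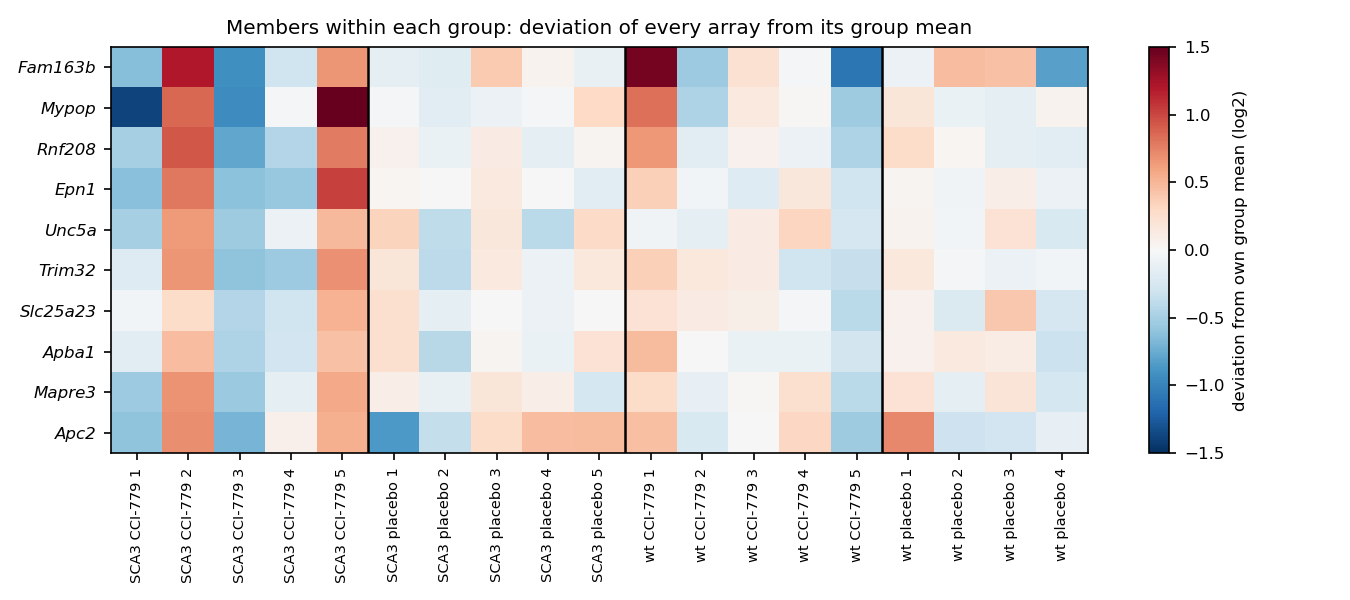
Deviation of each array from the mean of its own group (log2, colour) for the 10 genes in rows and the 19 arrays in columns, with black lines between groups. SCA3 CCI-779 columns 2 and 5 are red in every row, columns 1 and 3 are blue, and the placebo columns are mostly pale.

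Within groups the 10 genes deviated together. Over the 45 pairs of genes, the correlation of their deviations across 19 arrays had a median r of 0.74 (0.39 to 0.91). It was 0.87 (0.71 to 0.98) over the 10 CCI-779 arrays and 0.32 (-0.59 to 0.85) over the 9 placebo arrays. Without the 3 arrays that stood apart, it was 0.63 (-0.25 to 0.99) over 7 CCI-779 arrays and 0.47 (-0.04 to 0.79) over all 16 arrays. The points share arrays and their normalization, and these values are descriptions.

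The gene whose deviations were most like those of Fam163b was Prr12 (r = 0.90, Spearman's rho = 0.85, 19 arrays), followed by Diras1 (0.89), Iqsec2 (0.89), Nell2 (0.88), Dnajc17 (0.87) and Lrrc58 (0.86). Without the 3 arrays their r with Fam163b lay between 0.57 (Nell2) and 0.72 (Prr12). Of all genes, 46 had r over 0.8 with Fam163b, and 3 of these were among the 10: Rnf208 (0.85), Mapre3 (0.82) and Apba1 (0.82). The median r with Fam163b over all genes was 0.07. The 6 genes named differed by 0.32 to 0.79 under the drug in SCA3 and by 0.22 to 0.72 in wt, each less than Fam163b.

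No difference between genotypes was used to choose the genes, though the same arrays enter. Choosing on large rises under CCI-779 pulls CCI-779 values up and placebo values down, in whichever genotype the rise was large. SCA3 against wt under CCI-779 therefore uses values that chose the genes, and it is given as a description. Of their 11 tested probe sets 0 passed (limma, Benjamini-Hochberg adjustment over 20473 tested probe sets), beside 0.00977% of all, and nothing is read from that count. The brightest probe sets were all higher in SCA3, by a median of 0.66 (0.27 to 1.02) against -0.04 over all genes. Mypop had the largest difference, 1.02, and Mapre3 the smallest. Without SCA3 CCI-779 arrays 2 and 5 the median was 0.20 and Mapre3 turned to -0.14. Without wt CCI-779 array 1 as well, the median was 0.29 and 9 of 10 genes were above 0.

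Under placebo, SCA3 and wt differed by a median of 0.07 over the 10 genes, against 0.02 over all genes. The placebo values also entered the choice of the genes, so these differences are descriptions too. None of the 11 probe sets passed (limma, lowest adjusted p = 0.734), beside 0.00977% of all tested probe sets, and nothing is read from that count. An unadjusted p under 0.05 was found for 1 of the 11, beside 5.75% of all tested probe sets, and nothing is read from this count either. That 1 was the brightest of Apc2, which averaged 6.86 ± 0.59 (SD, n = 5) in SCA3 placebo and 5.97 ± 0.49 (SD, n = 4) in wt placebo. The difference was 0.89 (95% interval 0.18 to 1.60), and the interval takes no account of the choice of the genes. The other tested Apc2 probe set had 0.35 (-0.14 to 0.84). Among the other genes the largest difference was that of Fam163b, at 0.59 (-0.37 to 1.55). For the other 8 genes the difference lay between -0.16 (Apba1) and 0.25 (Rnf208).

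The interaction, the drug difference in SCA3 minus that in wt, had a median of 0.55 over the 10 genes, against -0.07 over all genes. It is built from the differences that chose the genes, so it is a description too. Of the 11 probe sets 0 passed with limma, as of all on the array (0%), and nothing is read from that count. Mypop had the largest value, 0.97, followed by Epn1 at 0.77 and Unc5a at 0.73, and Apc2 alone was below 0, at -0.46. Without SCA3 CCI-779 arrays 2 and 5 the median was 0.18 and 6 of 10 genes were above 0, with Fam163b at -0.24, Rnf208 at -0.07 and Mapre3 at -0.15. Without wt CCI-779 array 1 as well, the median was 0.26 and 8 of 10 were above 0.

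**Figure D4:**
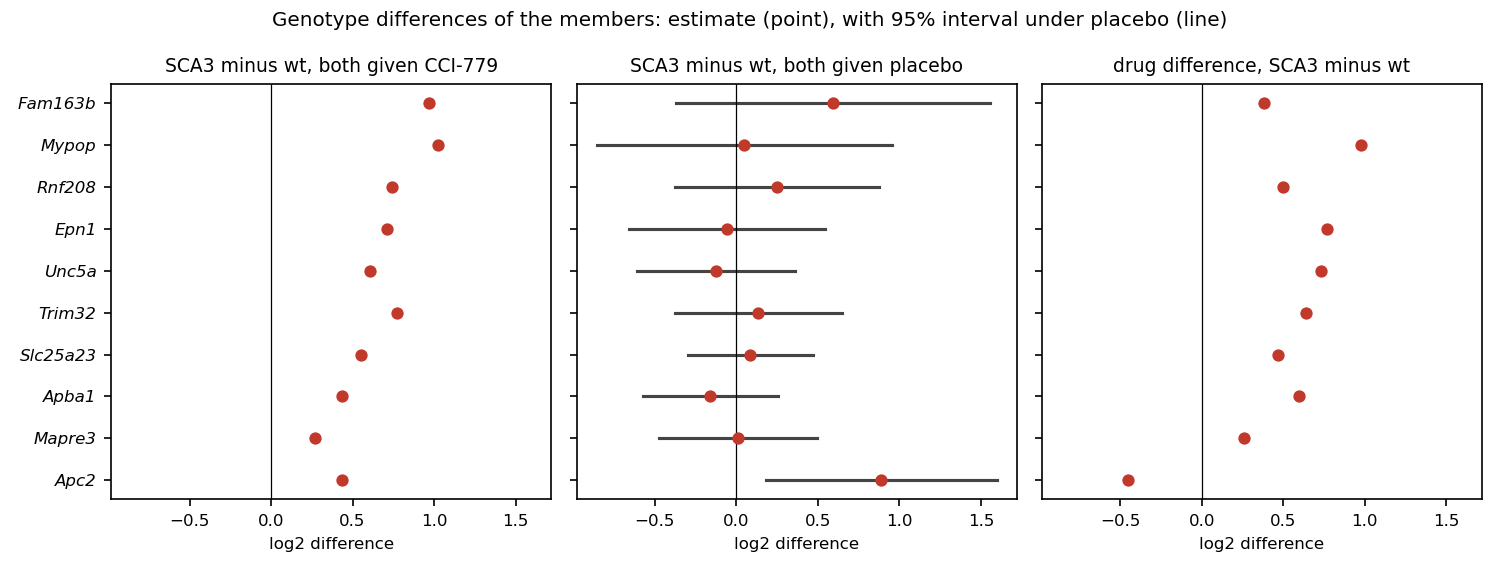
Estimate (point) for the 10 genes, on the log2 scale, of SCA3 minus wt under CCI-779 (left), SCA3 minus wt under placebo (middle, with its 95% interval as a line) and the interaction (right). All points of the left panel lie above 0, between 0.27 and 1.02, those of the middle panel lie near 0 except Apc2 and Fam163b, and in the right panel Apc2 alone lies below 0.

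Paralogs and partners of the 10 genes, in 8 lists, give the setting. Of 141 listed genes 117 were tested. In SCA3, 14 rose and 7 fell (limma, adjusted p under 0.05), that is 12% higher, where 11% of all genes rose and 6.09% fell. In wt, 17 rose and 2 fell, 14.5% higher, where 11.5% of all genes rose and 1.64% fell. Both shares lay near those of all genes, and the medians were 0.01 in SCA3 and 0.05 in wt. With each array centred on its median, 10 rose in wt. Without SCA3 CCI-779 arrays 2 and 5, 7 rose in SCA3.

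The paralogs named here did not have differences of the size of the 10 genes. Apba2 (Mint2) rose by 0.39 in SCA3 (SE 0.10, adjusted p = 0.0139), a call lost without SCA3 CCI-779 arrays 2 and 5 (adjusted p = 0.0889), and its 0.28 in wt did not pass. Unc5b, Unc5c and Unc5d had 0.08, 0.06 and -0.42 in SCA3, and 0.13, 0.30 and -0.04 in wt, none of which passed. Epn2 had 0.13 in SCA3 and 0.08 in wt, Mapre1 0.02 and 0.04, and Mapre2 -0.19 and 0.00, without passing. The 3 other Mapre1 probe sets disagreed, with -0.24 to 0.65 in SCA3. Apc had -0.22 in SCA3 and -0.13 in wt, also without passing, where Apc2 had 1.15 and 1.61. The related carrier Slc25a25 had 0.10 in SCA3 and -0.12 in wt. Slc25a41, another one and dim (group means 4.01 to 4.42), had -0.05 in SCA3 and -0.18 in wt, and neither carrier passed. These paralogs, apart from Apba2, were named after their values were seen.

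Among the 14 netrin receptors and ligands tested, 1 rose in each genotype and none fell. It was Rgmb, a ligand of neogenin and coreceptor for bone morphogenetic proteins, with 0.75 (adjusted p = 0.0048) in SCA3 and 0.73 (adjusted p = 0.0107) in wt. Its other 4 probe sets had 0.06 to 0.49 in SCA3 and -0.21 to 0.38 in wt, and its call in SCA3 was lost without SCA3 CCI-779 arrays 2 and 5 (adjusted p = 0.0528). Of 33 genes of clathrin-mediated endocytosis, 3 rose and 2 fell in SCA3, and 6 rose and 1 fell in wt. Fcho2, which starts clathrin pits, rose by 0.34 in SCA3 and 0.59 in wt (adjusted p = 0.00709 and 0.000757). Ap2m1, the subunit of the AP2 adaptor that reads sorting signals, fell by 0.23 in SCA3 and 0.22 in wt (adjusted p = 0.00762 and 0.017). The kinase Aak1 rose in wt by 0.30 (adjusted p = 0.0122, and 0.0972 with each array centred on its median), while its other 3 probe sets had -0.78 to 0.10 in wt. The dynamin Dnm1 rose in wt by 0.26 (adjusted p = 0.0139, and 0.177 with that centring). Dnm1 also rose in SCA3, by 0.18 (adjusted p = 0.0429), and kept that call in 6 of 19 fits that left out 1 array each (adjusted p up to 0.098).

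Of 15 Mint adaptors and partners of the amyloid precursor protein, 3 rose in each genotype and 1 fell in SCA3. Caskin1, a scaffold that binds CASK, rose by 0.83 in SCA3 and 0.85 in wt (adjusted p = 0.000821 and 0.00185). Lin7c, of the complex of CASK and Mint, rose by 0.26 in SCA3 and 0.42 in wt (adjusted p = 0.00669 and 0.000976), though its other 3 probe sets had -0.56 to 0.15 in SCA3 and -0.77 to 0.19 in wt. Apbb3 rose in wt by 0.72 (adjusted p = 0.00286), and its 0.32 in SCA3 did not pass.

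Of 22 microtubule plus-end proteins, 2 rose in SCA3, and 5 rose and 1 fell in wt. Nav1, a neuron navigator, rose by 0.42 in SCA3 and 0.50 in wt (adjusted p = 0.0134 and 0.00947), and its other 3 probe sets had -0.04 to 0.74 in SCA3 and 0.00 to 0.26 in wt. The cross-linkers Macf1 and Dst rose in wt by 0.43 and 0.32 (adjusted p = 0.00391 and 0.00663), the second losing the call under centring of each array on its median (adjusted p = 0.0539). Clasp2, which steadies microtubule ends, fell in wt by 0.51 (adjusted p = 0.00346), where its other probe set had 0.15.

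Of 15 genes of the beta-catenin destruction complex and Wnt signalling, 4 rose and 2 fell in SCA3, and 2 rose in wt. Lrp6, a Wnt coreceptor, rose by 0.71 in SCA3 and 0.66 in wt (adjusted p = 0.00309 and 0.00903), and the scaffold Axin1 by 0.45 and 0.53 (adjusted p = 0.0129 and 0.00869). The brightest probe set of the kinase Gsk3b rose by 0.47 in SCA3 (adjusted p = 0.00378), while its other 5 had -0.27 to 0.18. Csnk1a1, the kinase that primes beta-catenin, fell by 0.24 in SCA3 (adjusted p = 0.00956), a call lost without SCA3 CCI-779 arrays 2 and 5 (adjusted p = 0.0722), and its other 3 probe sets had -0.07 to 0.13.

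The lists nearest to Trim32, Slc25a23, Mypop and Fam163b held few calls. Trim3, another protein with NHL repeats, rose by 0.33 in SCA3 (adjusted p = 0.0272), 1 of 5 tested, and lost the call without SCA3 CCI-779 array 2 or 5 or without placebo array 1, 2 or 4 (adjusted p up to 0.0799). Of 12 mitochondrial calcium and adenine nucleotide transport genes none rose, and Slc25a12 and Mcur1 fell in SCA3 by 0.21 and 0.29 (adjusted p = 0.0236 and 0.0327). The call of Slc25a12 was lost without SCA3 CCI-779 array 1 or 2 or placebo array 3 or 4 (adjusted p up to 0.0682), and its other probe set had -0.02. That of Mcur1 was lost without SCA3 CCI-779 array 1, 2 or 5 or placebo array 1, 2 or 4 (adjusted p up to 0.0939). Of the profilins, MYB factors and Fam163a, only Pfn1 and Pfn2 were bright enough to be tested, and neither passed, with 0.02 and -0.03 in SCA3 and -0.33 and -0.03 in wt.

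**Figure D5:**
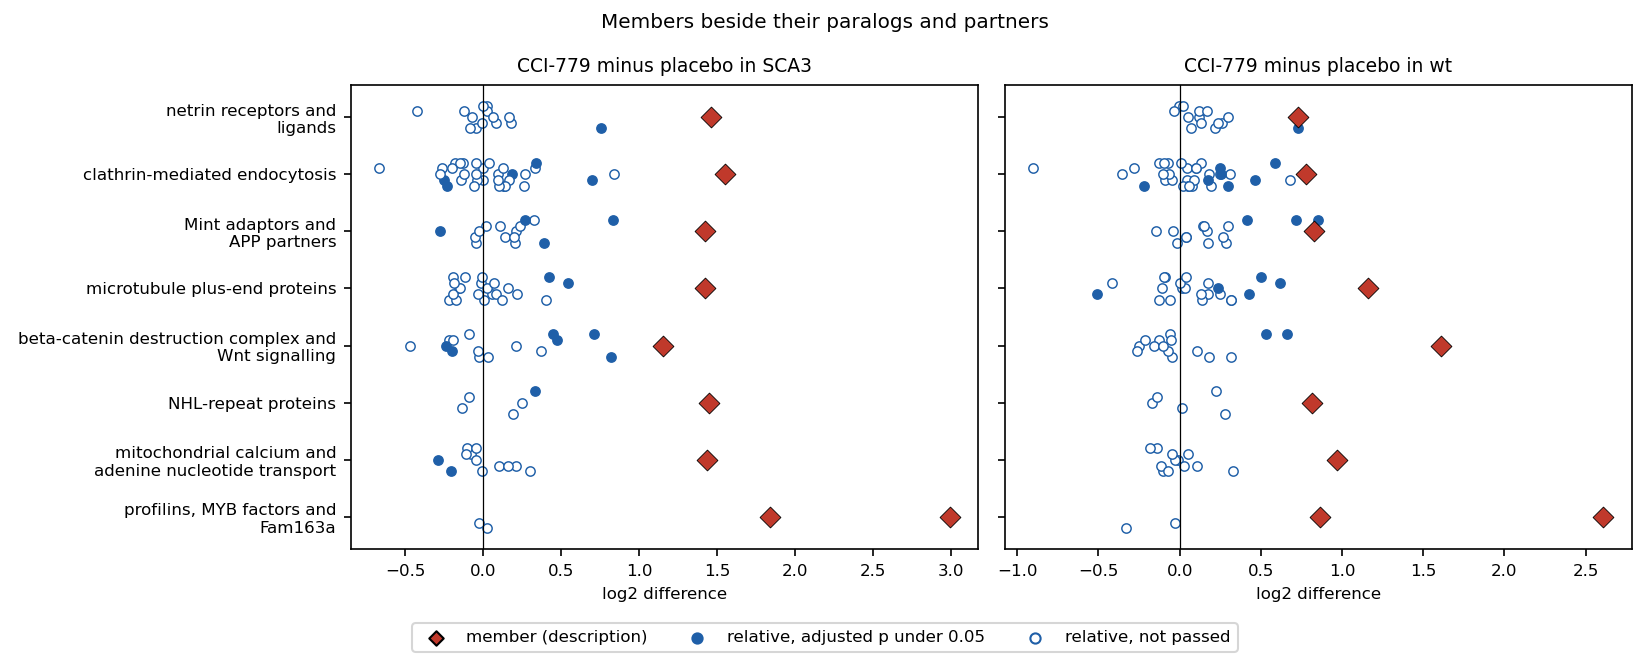
Difference CCI-779 minus placebo (log2) in SCA3 (left) and wt (right) for the tested genes of 8 lists (circles, filled where the adjusted p was under 0.05) and for the 9 genes they belong to (diamonds; Rnf208 has no list). In SCA3 every diamond lies right of all circles in its row, from 1.15 to 2.99; in wt the Unc5a and Apba1 diamonds, at 0.73 and 0.83, have a circle beside them.

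Other measures of the arrays also differed between CCI-779 and placebo arrays. Hybridisation controls, transcripts added to each sample, averaged 10.54 (log2) on SCA3 CCI-779 arrays (10.44 to 10.65) and 11.36 on SCA3 placebo arrays (11.19 to 11.60). In wt they averaged 10.23 on CCI-779 arrays (9.97 to 10.65) and 11.13 on placebo arrays (10.88 to 11.49). The ranges did not overlap within either genotype, so drug and control level cannot be told apart between groups. The 3′ minus 5′ value of GAPDH, a sign of RNA integrity, averaged -0.35 on SCA3 CCI-779 arrays and -0.52 on SCA3 placebo arrays, and -0.28 on wt CCI-779 arrays and -0.54 on wt placebo arrays. The wt CCI-779 mean was raised by array 1, at 0.28. It was -0.42 over the other 4 (-0.44 to -0.395), a mean added after seeing the data. The wt placebo arrays lay lower, at -0.584 to -0.50, with or without array 1. In SCA3 the range was -0.427 to -0.283 under CCI-779 against -0.535 to -0.474 under placebo. Drug and this GAPDH value therefore cannot be told apart between groups either. The arrays that stood apart also did so on the like measure of actin. It was 0.96 and 0.88 on SCA3 CCI-779 arrays 2 and 5 and 1.44 to 1.55 on the other 3 of that group, and 2.55 on wt CCI-779 array 1 with a mean of 1.36 on the other 4. Within groups over 19 arrays, the mean deviation of the 10 genes had an r of 0.02 (rho 0.00) with the hybridisation controls, 0.38 (rho 0.16) with GAPDH and -0.06 (rho -0.28) with actin. These within-group values do not bear on a difference between groups. On the 3 arrays that stood apart, the mean deviation of the 10 genes was 0.72 on SCA3 CCI-779 arrays 2 and 5 and 0.50 on wt CCI-779 array 1. What part these measures have in the differences of the 10 genes was not tested.

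Neuron markers were bright on all arrays, and their summed linear level overlapped between groups (93882 to 102374 in SCA3 CCI-779, 94881 to 100278 in SCA3 placebo, 93515 to 97704 in wt CCI-779 and 94432 to 100634 in wt placebo). Of 10 neuron markers, 2 rose and 1 fell in each genotype. Elavl4 rose by 0.46 in each. Eno2 rose by 0.36 in SCA3 and 0.28 in wt, and Rbfox3 fell by 0.27 in SCA3 and 0.38 in wt, though its other 2 probe sets had 0.51 and 0.83 in SCA3 and 0.34 and 0.62 in wt. Without SCA3 CCI-779 arrays 2 and 5 the SCA3 calls of Eno2 and Rbfox3 were lost (adjusted p = 0.0741 and 0.0936). The wt call of Eno2 was kept in 9 of 19 fits that left out 1 array each, and was lost with each array centred on its median (adjusted p = 0.138). Microglia markers summed lower under the drug, to 2966 to 3947 in SCA3 CCI-779 against 4360 to 4747 in SCA3 placebo, and 3058 to 3759 in wt CCI-779 against 4398 to 4977 in wt placebo, with 5 of 8 falling in SCA3 and 3 of 8 in wt. Without SCA3 CCI-779 arrays 2 and 5, C1qb alone of those 5 kept its call, and Tmem119 and Itgam were too dim to be tested. Csf1r, which fell by 0.395 in SCA3 and 0.575 in wt, has the largest part in the microglia sums. Its other 2 probe sets had 0.06 and 0.08 in SCA3 and 0.00 and -0.01 in wt. Oligodendrocyte markers summed to 71661 to 79582 in SCA3 CCI-779 against 82739 to 108694 in SCA3 placebo, with 5 of 9 falling, of which Mobp lost its call without SCA3 CCI-779 arrays 2 and 5 (adjusted p = 0.057). In wt they summed to 68215 to 83301 under CCI-779 against 80303 to 97089 under placebo, and 0 of 9 passed. Markers of meninges and fibroblasts summed to 1681 to 1937 in SCA3 CCI-779 against 1129 to 1709 in SCA3 placebo, with 2 of 8 rising. In wt they summed to 1492 to 1875 under CCI-779 against 1148 to 1472 under placebo, with 1 of 8 rising (12.5%). Beside these marker counts, 11% of all genes rose and 6.09% fell in SCA3, and 11.5% rose and 1.64% fell in wt. The 12.5% lay near the share of all genes, and nothing is read from it. Cerebellum markers spread widely within groups, and 0 of 8 passed in either genotype. They summed to 25645 to 35753 in SCA3 CCI-779, 32250 to 41681 in SCA3 placebo, 21824 to 36839 in wt CCI-779 and 19007 to 40966 in wt placebo. Sums of astrocyte, endothelium and choroid plexus markers overlapped between drug and placebo in each genotype. In whole-tissue RNA, fewer cells of a type and less RNA per cell cannot be told apart. The part of cell makeup in the differences of the 10 genes was not tested.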

How the data were processed

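Labelled RNA of 19 brain samples was hybridised to single-colour Affymetrix arrays. The values are linear intensities in a single table that the authors deposited. The submitters' processing notes name GCRMA, a method that removes background estimated from probe sequence, scales the arrays to each other and gives 1 value a probe set; no version of it is stated in the notes. GCRMA sets dim probe sets near a common floor, which can change the size of a difference for those that were dim under placebo, such as Fam163b and Mypop.

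Here log2 was taken with no pseudocount. Of 45037 probe sets other than controls, the 20473 with a mean log2 of at least 4 were tested. A gene was represented by its brightest tested probe set, which gave 10454 genes, named from the platform annotation where a probe set carried 1 symbol. Group means were compared with limma 3.58.1 in R 4.3.3, in 1 fit of 4 groups over 19 arrays with 15 residual degrees of freedom, two-sided, with Benjamini-Hochberg adjustment over all tested probe sets and a threshold of 0.05. The fit was tested on simulated data. The number of arrays limits the precision.

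The 10 genes and all lists were chosen with earlier results of these data known. Named besides the 10 were up to 4 called genes of each list with the smallest p (otherwise 2), the 6 genes most like Fam163b within groups, and genes that ranked above the fifth of the 10 by mean drug difference. The r between the deviations of same-numbered arrays was low (-0.20 to 0.29). The same-numbered array was the best match in some comparisons, among them each one of number 4, and not in others. Numbers were taken not to pair arrays. Promoters came from RefSeq (GRCm38.p6). Alternatives were other filters and scalings, a pseudocount of 16, another variance model, array weights, the compared arrays alone, the replicate number as a block, the mean over probe sets and leaving out arrays.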

Additional observations from a re-analysis of the deposited data

Results flagged for a closer look

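In 2 of 44 groups of arrays tested, over the 11 tested probe sets of the 10 genes in 4 groups each, 1 array lay far from the others by Dixon's test, where chance gives about 1 in 20. Apba1 read 8.29 on wt placebo array 4, below the 8.68 to 8.76 of the other arrays of its group. The dimmer tested Apc2 probe set read 5.63 on SCA3 placebo array 4, below the 5.83 to 5.86 of the other arrays of its group.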

How the results depend on the processing

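In all, 558 CCI-779 minus placebo differences of the 10 genes were recomputed under the alternatives. None changed direction, which the choice of the genes for large rises in these arrays made likely. Of the 558, 546 moved by less than the SD between arrays. The 12 that moved more were those of 6 genes in SCA3 without SCA3 CCI-779 arrays 2 and 5 (with and without wt CCI-779 array 1). Leaving out 1 array at a time gave a median difference of 1.31 to 1.60 in SCA3 and 0.83 to 1.03 in wt, and 0 calls among the genes in SCA3 against wt under placebo. Mypop in wt was 0.41 with the replicate number as a block, against 0.86 without it.

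Counts over all probe sets were less steady. CCI-779 against placebo in SCA3 gave 3107 calls, 67.4% of them higher (53% after quantile normalization again, 44.7% with each array centred on its median), with 1956 (without SCA3 CCI-779 array 2) to 4048 calls leaving out 1 array and 1203 without SCA3 CCI-779 arrays 2 and 5. In wt it gave 2435, 82.2% higher (61.3% and 45.2%), with 1343 (without wt placebo array 3) to 2717 leaving out 1 array, 1584 with no filter, 1364 on the compared arrays alone and 1384 with the replicate number as a block. Centring moved the median of all probe sets in wt to -0.05, against 0.05.

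SCA3 against wt under placebo gave 2 calls, 0 to 8 leaving out 1 array, 1 with no filter, 1 after quantile normalization, 1 on the compared arrays, and 0 with the block or without the arrays that stood apart. Under CCI-779 it gave 2, 0 to 8 leaving out 1 array, 1 with no filter, 1 on the compared arrays, 6 with array weights, and 0 with the block or without SCA3 CCI-779 arrays 2 and 5. Relatives that rose numbered 10 to 19 in SCA3 and 12 to 20 in wt leaving out 1 array, 7 in SCA3 without SCA3 CCI-779 arrays 2 and 5 and 9 without all 3 arrays, and in wt 10 with centring and 11 on the compared arrays alone. Of their calls, 11 of 21 in SCA3 and 14 of 19 in wt were kept whichever single array was left out. The cause was not tested. The label of wt CCI-779 array 1 carries no number, so it formed a block of its own.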

Other observations

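Genes outside the 10 stood among them when ranked by the drug difference averaged over both genotypes. Atn1, the transcriptional corepressor whose polyglutamine expansion causes dentatorubral-pallidoluysian atrophy, ranked 2, with 2.40 (SE 0.34) in SCA3 and 1.47 (SE 0.36) in wt. The zinc finger genes Zfp316 and Zfp385a ranked 4 and 5, with 1.21 and 1.35 in SCA3 and 1.62 and 1.42 in wt. Polr2a, the largest subunit of RNA polymerase II, ranked 7, with 1.5 in SCA3 and 1.22 in wt. Adgrg1, an adhesion receptor of cortical development, ranked 9, with 1.48 in SCA3 and 1.18 in wt. Npnt, an integrin ligand of basement membranes, and Tns2, a tensin of focal adhesions, ranked 10 and 11, with 1.08 and 1.37 in SCA3 and 1.57 and 1.26 in wt. They were taken by rank in the same contrasts, so these values are descriptions.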
